A study of Mus musculus with 2 samples.

Results

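Hox genes encode homeodomain transcription factors that give cells along the head-to-tail axis of the embryo their regional identity. The members were every row of the expression table whose symbol was Hoxa, Hoxb, Hoxc or Hoxd followed by a number, with antisense names left out. This gave 40 rows for 39 genes among 23466 rows, because Hoxd4 stood on 2 rows with different identifiers. The values were bulk RNA-seq levels in FPKM, fragments scaled to transcript length and to the number of mapped fragments, so they are levels per length. The 2 libraries came from cultured mouse cells whose label is primary microglia, the macrophages that reside in the brain. The control was given the vehicle DMSO. The treated culture was given 1600 μM iron together with 1 μM RSL3, an inhibitor of the lipid peroxide-reducing enzyme GPX4, agents used to set off ferroptosis, an iron-dependent cell death. The agents were given together, so their parts cannot be told apart. For strain, age, genotype and dissected region, the labels of these 2 cultures give nothing.

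In mammals the Hox genes lie in 4 clusters on different chromosomes, and genes of like position in different clusters, called paralogues, carry the same number. Low numbers are switched on in the hindbrain, pharyngeal arches and neck, middle numbers in the trunk, and high numbers in the lumbosacral region, the distal limb, the tail and the urogenital tract. Much of the mesenchyme of the face and skull forms without Hox expression. Fibroblasts and other mesenchymal cells often keep the Hox pattern of the place they came from, also in culture, so the pattern is used as a record of origin. Bone marrow-derived blood cells use some of the same genes, Hoxa9 among them, as regulators of growth and differentiation, whereas microglia arise from the yolk sac.

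The label was checked first, because it decides which cells a Hox level can be read for. The defining microglial genes Aif1 and Cx3cr1 were listed at 0 FPKM in both libraries. P2ry12 was at 0.05 and 0.04 FPKM in the control and the treated library, Csf1r at 0.47 and 0.39 FPKM, and the leukocyte gene Ptprc at 0.07 and 0.11 FPKM. Of 12 microglia and myeloid markers, 3 reached 1 FPKM in both libraries, Cd68 and Tyrobp among them. Of the 12, 5 were measured, at 1 FPKM or more in either library. Of these 5, 3 were 2-fold higher in the treated library on log2(FPKM + 1), against 4.25% of all measured rows. They were Cd68 (3.36 and 10.4 FPKM), Adgre1 (0.54 and 2.15 FPKM) and Fcer1g (0.75 and 2.95 FPKM). Adgre1 and Fcer1g were measured only through the treated library and so had to be higher there. The part of these 3 genes in the Hox levels was not tested. Over 11 of these markers the summed level was 7.38 FPKM with DMSO and 20.4 FPKM with iron plus RSL3. All 10 mesenchymal markers reached 1 FPKM in both libraries, with sums of 5524 and 5135 FPKM, led by the proteoglycan gene Bgn and the collagen gene Col1a2. The levels below are therefore those of cultures whose RNA carried mesenchymal markers and in which the defining microglial markers were absent or near 0. In bulk RNA, fewer cells of a type and less RNA per cell cannot be told apart, and which cells held a Hox transcript was not tested.

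Each Hox protein binds DNA through its homeodomain, which is encoded by a stretch of 180 bases called the homeobox. Homeoboxes are shown for Hoxa2 and Hoxb2, the members of cluster A and cluster B with the highest level, and for Hoxd8, the highest of cluster D. They are the coding strand of the longest coding transcript in GENCODE M21 that holds the homeobox, read 5′ to 3′. Capitals mark the 18 bases that encode the most conserved part of the recognition helix.
Hoxa2: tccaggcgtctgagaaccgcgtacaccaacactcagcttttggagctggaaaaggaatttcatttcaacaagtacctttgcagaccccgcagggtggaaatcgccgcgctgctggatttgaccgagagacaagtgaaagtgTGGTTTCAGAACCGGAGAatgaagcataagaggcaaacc
Hoxb2: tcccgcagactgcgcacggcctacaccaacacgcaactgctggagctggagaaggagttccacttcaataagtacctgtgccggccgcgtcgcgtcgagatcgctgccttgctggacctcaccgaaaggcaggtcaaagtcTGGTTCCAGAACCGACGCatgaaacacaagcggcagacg
Hoxd8: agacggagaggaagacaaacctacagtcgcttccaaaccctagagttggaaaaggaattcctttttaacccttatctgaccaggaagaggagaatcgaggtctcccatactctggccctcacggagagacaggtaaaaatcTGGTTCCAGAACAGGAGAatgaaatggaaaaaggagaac
The Hoxa2 and Hoxb2 homeoboxes matched at 134 of 180 bases (74.4%) and encoded the same residues throughout. Those of Hoxa2 and Hoxd8 matched at 104 bases (57.8%). Over all 39 homeoboxes the median identity was 80.6% for the 42 pairs with the same number and 60.6% for the 699 pairs with different numbers. Such likeness raises the question of reads shared between paralogues. The longest run of bases that Hoxa2 transcripts had in common with another Hox gene was 24 bases, with Hoxa4. For Hoxb2 it was 28 bases, for Hoxd8 32 bases (with Hoxb8) and for Hoxd9 40 bases (with Hoxb9). The exception was Hoxd3 and Hoxd4, which overlap in the genome and share 388 exon bases.

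Few Hox genes were present, and those that were lay at low levels. A member was called present at 1 FPKM or more. In the control 7 of 40 rows were present (17.5%), against 48.9% of all rows of the table. In the treated library 4 of 40 were present (10%), against 46.4% of all rows. A further 21 of 40 (52.5%) were listed at 0 in both libraries, against 27.1% of all rows. Of 20 broadly used genes checked, 1, Calcoco2, was likewise listed at 0 in both libraries. These 20 were picked by hand, and Calcoco2 is also in the list of genes flanking the clusters, so the count gives no rate of failed estimates. Whether a listed 0 is absence or a failed estimate was not tested. Together the Hox rows held 24.1 FPKM with DMSO and 14.5 FPKM with iron plus RSL3. Hoxd8 and Hoxa2 alone made up 53.8% and 61.7% of these sums.

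**Figure D1:**
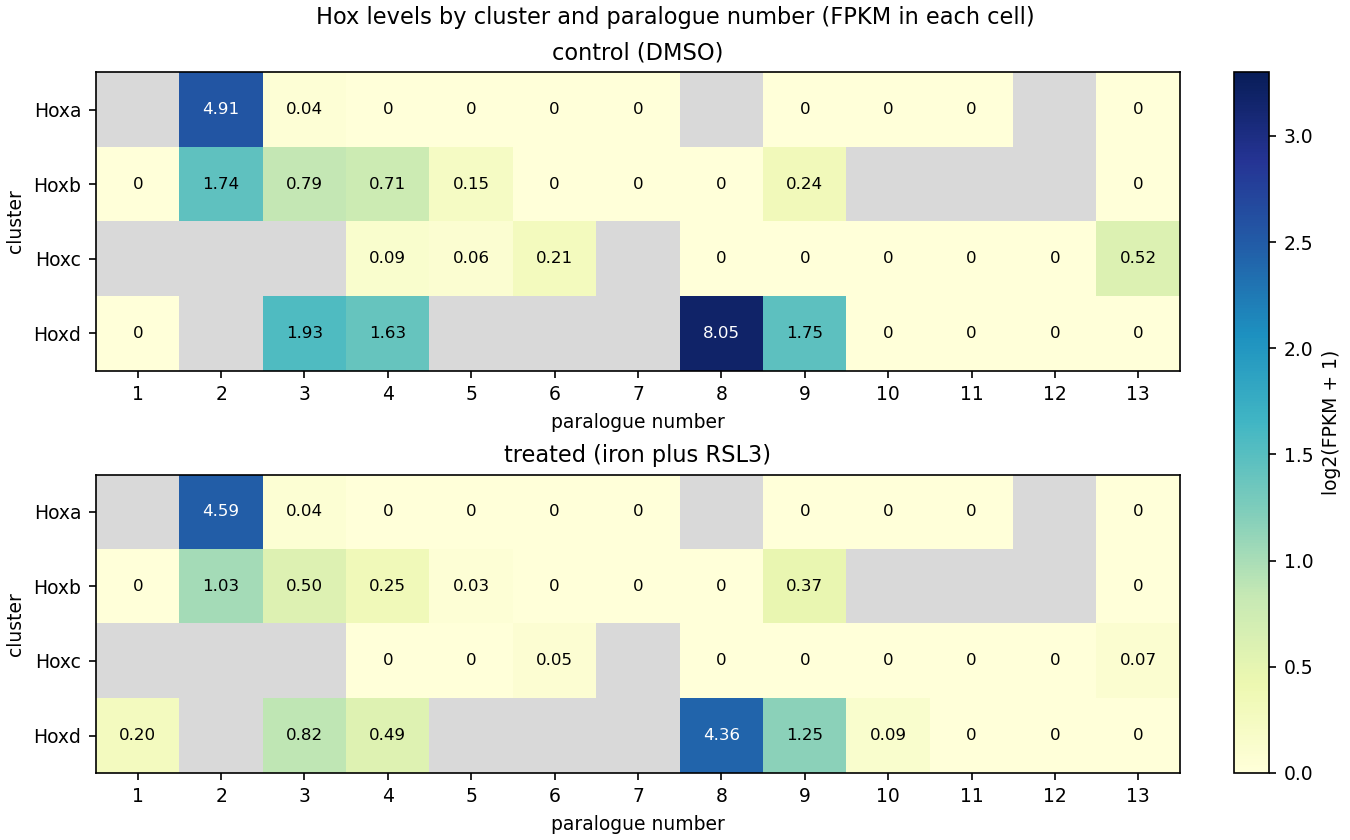
Level of each Hox gene by cluster (rows) and paralogue number (columns) in the control (top) and the treated library (bottom), 1 library each. Numbers are FPKM, colour is log2(FPKM + 1), grey cells are positions without a gene or with no value shown, and the 2 Hoxd4 rows are summed. In the control, cells above 1 FPKM lie at numbers 2 to 4 and at 8 and 9. In the treated library they lie at 2, 8 and 9. None lies at 10 to 13 in either library.

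By paralogue number, the sums were concentrated at the low numbers and at 8 and 9. Numbers 1 to 4 held 13.1 FPKM with DMSO and 8.29 FPKM with iron plus RSL3, over 13 rows. Numbers 5 to 9 held 10.5 and 6.06 FPKM over 15 rows, and nearly all of this came from Hoxd8 and Hoxd9. Within that range, numbers 5, 6 and 7 summed to 0.21, 0.21 and 0 FPKM in the control and to 0.03, 0.05 and 0 FPKM in the treated library. Cluster D has no gene with these numbers, so these sums come from the other, weaker clusters. In cluster D, Hoxd4 and Hoxd8 are direct neighbours, 3995 bases apart, so the low sums mark no gap within that cluster. Numbers 10 to 13 held 0.52 and 0.16 FPKM over 12 rows, of which 10 were listed at 0 in both libraries. The highest number present was 2 in cluster A, 2 in cluster B and 9 in cluster D, the same in both libraries, and no member of cluster C was present. In the scheme given above, numbers 1 to 4 are those of the hindbrain, arches and neck, and 8 and 9 those of the trunk. The lumbosacral, distal limb and tail numbers were at or near 0. Whether Hoxa2 and Hoxd8 were made by the same cells or by cells of different origin cannot be told apart in bulk RNA.

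In cluster A, on chromosome 6, expression was concentrated at the low-numbered end. Hoxa2 (52162417 to 52164831, GRCm38, minus strand) patterns the second pharyngeal arch and its bones. It was at 4.91 FPKM with DMSO and 4.59 FPKM with iron plus RSL3, the second highest Hox level in the control and the highest in the treated library. Hoxa3, a thymus and parathyroid patterning gene whose annotated span begins 4230 bases beyond Hoxa2, was at 0.04 FPKM in both libraries. The level thus dropped between these neighbours in both libraries. A further 8 members, Hoxa4 to Hoxa13, were listed at 0 in both. They include Hoxa5, a trunk and lung gene, Hoxa9, which is active in haematopoietic progenitors, and the limb genes Hoxa11 and Hoxa13.

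In cluster B, on chromosome 11, levels declined from number 2 upwards. Hoxb2 (96350525 to 96354012, plus strand), another hindbrain gene, was at 1.74 FPKM with DMSO and 1.03 FPKM with iron plus RSL3. Hoxb3 followed at 0.79 and 0.50 FPKM, Hoxb4, also known from blood stem cells, at 0.71 and 0.25 FPKM, and Hoxb5 at 0.15 and 0.03 FPKM. This order was the same in both libraries. Hoxb1, which specifies a single hindbrain segment, was listed at 0 in both, as were Hoxb6, Hoxb7, Hoxb8 and Hoxb13. Hoxb9, a rib-patterning gene, stood apart from its neighbours listed at 0, at 0.24 and 0.37 FPKM. The annotated antisense gene Hoxb3os covers 52.9% of the Hoxb3 exon bases and 27.3% of those of Hoxb2. No strand-marking step appears in the library protocol, so antisense reads cannot be told apart from those of Hoxb2 and Hoxb3.

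Cluster C, on chromosome 15, was the weakest. Its 9 members summed to 0.87 FPKM with DMSO and 0.12 FPKM with iron plus RSL3, and 5 of them were listed at 0 in both. Hoxc13, a hair and nail gene at the high-numbered end, was the strongest at 0.52 and 0.07 FPKM. Hoxc6, a thoracic gene, was at 0.21 and 0.05 FPKM. Hoxc4 (0.09 FPKM) and Hoxc5 (0.06 FPKM) were seen in the control and listed at 0 in the treated library. Hoxc8 to Hoxc12, which lie between Hoxc6 and Hoxc13, were listed at 0 in both. These levels rest on few fragments, about 21 and 3 for Hoxc13 and no more than 6 for any of the others.

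Cluster D, on chromosome 2, held the largest share, 55.4% of the Hox total with DMSO and 49.7% with iron plus RSL3. Hoxd8 (74704615 to 74707933, plus strand), a trunk gene, had the highest Hox level in the control at 8.05 FPKM, and was at 4.36 FPKM in the treated library. That placed it above 70.6% of all rows of the control and 67.5% of the treated table. Hoxd9 (74697727 to 74700208, plus strand), a gene of trunk and limb patterning, was at 1.75 and 1.25 FPKM. Hoxd10, the next gene, 2621 bases further on, was listed at 0 in the control and was at 0.09 FPKM in the treated library, about 3 fragments. Hoxd11, Hoxd12 and Hoxd13, genes of the distal limb and genital tubercle, were listed at 0 in both. Hoxd1 was listed at 0 in the control and was at 0.20 FPKM in the treated library, about 7 fragments.

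Hoxd3 and Hoxd4, genes of the upper cervical vertebrae, could not be quantified separately. Hoxd3 (74711927 to 74748442, plus strand) was at 1.93 FPKM with DMSO and 0.82 FPKM with iron plus RSL3. The annotated Hoxd4 row was at 0.51 and 0.40 FPKM, and the other row with that symbol, whose identifier was not found in GENCODE M21, at 1.12 and 0.09 FPKM. A further row, the overlapping coding locus Gm28230, shares 53.1% of the Hoxd3 and 39.1% of the Hoxd4 exon bases and was at 1.82 and 0.38 FPKM. The sum of these 4 rows was 5.38 FPKM with DMSO and 1.70 FPKM with iron plus RSL3, a ratio of 0.315. All 4 rows were lower in the treated library, by different factors, and how the reads were divided among them was not tested.

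**Figure D2:**
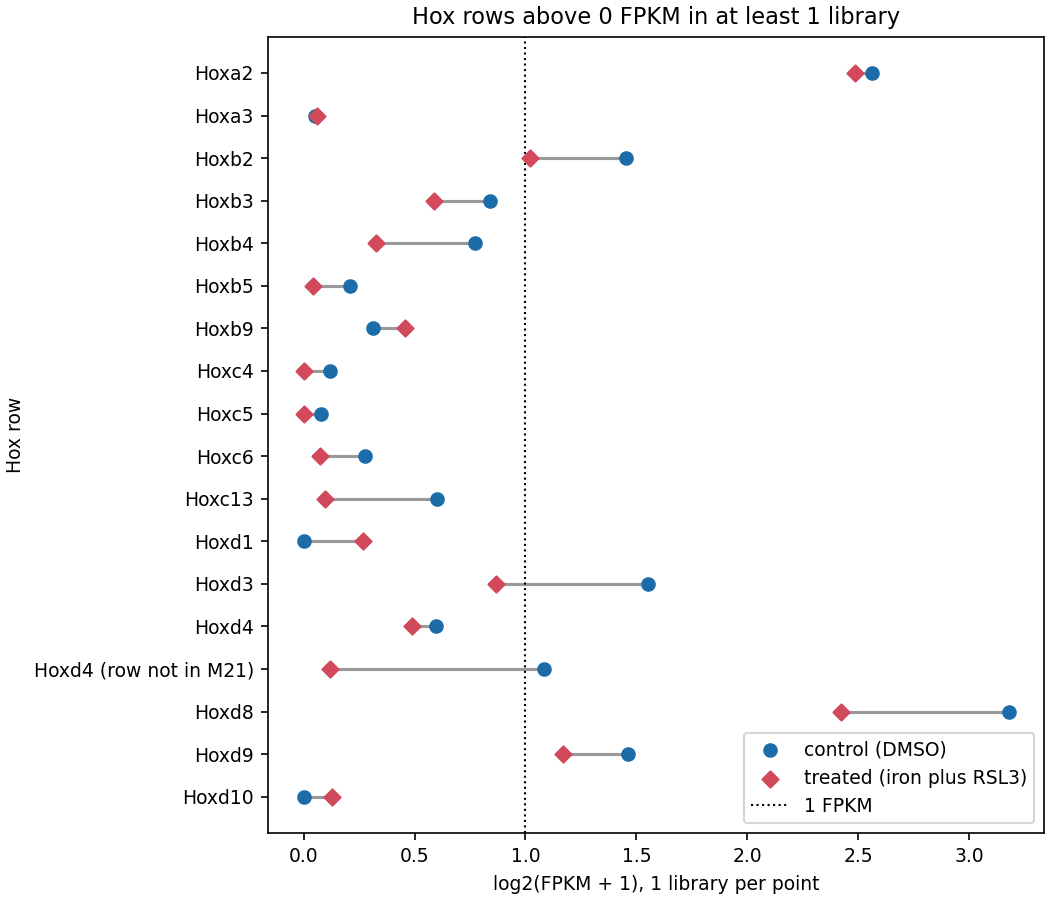
Levels of Hox rows above 0 FPKM in at least 1 library, on the scale of log2(FPKM + 1), with a circle for the control and a diamond for the treated library. The dotted line marks 1 FPKM. The rows to the right of it in the control all have their diamond further left, and among them Hoxa2 moves least. Rows past the line in the control only, Hoxd3 and the second Hoxd4 row, had to be lower. Of all measured rows, 74.3% had a change below 0.

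The study compared the treated with the control culture. Each condition had 1 library, so differences have no replicate check, no error between cultures and no p-value, and they describe these libraries and not the conditions. Changes are differences of log2(FPKM + 1), treated minus control, over rows with at least 1 FPKM in either library, and a change was called by size alone, at 2-fold. That scale understates changes of weak genes, so ratios of FPKM are given beside it. Of 11771 measured rows, 11.8% were 2-fold lower, 4.25% were 2-fold higher, and 74.3% had a change below 0. Of the 7 measured Hox rows, 0 were 2-fold lower and 0 were 2-fold higher, and 7 had a change below 0. Of these, 3 rows, Hoxd3 and the second Hoxd4 identifier among them, were measured only through the control and so had to be lower, which leaves the count of 7 and their median without weight. The median of the 7 was -0.68, against -0.38 for all measured rows and -0.48 for the 5338 measured rows under 10 FPKM in both libraries, of which 78.8% had a change below 0 and 14.7% were 2-fold lower. At 1.5-fold, 4 of the 7 were lower, against 34.7% of all measured rows.

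An approximate depth was read from the low values of genes with 1 annotated transcript, which lay partly on steps. If 1 step is 1 fragment, 1 FPKM over 1 kilobase of transcript was worth about 16.5 fragments with DMSO and 17.98 with iron plus RSL3. Only 35.3% and 38.0% of such low values were within 0.05 of a whole step, so the fragment numbers are estimates on the longest coding transcript. Intervals below are exact 95% binomial intervals of the FPKM ratio and cover counting error only. For genes with several transcripts a shorter length would give fewer fragments and a wider interval.

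Of the 4 members present in both libraries, Hoxa2 was the closest to no difference on the deposited scale. Its estimated 143 and 147 fragments gave a treated-to-control ratio of 0.936, with an interval from 0.743 to 1.19. Its log2 change of -0.08 became 0.17 after centring on abundant genes, so its direction depends on the scale. Hoxd9, with 62 and 48 fragments, had a ratio of 0.711 and an interval from 0.476 to 1.05. Its log2 change was -0.29, and -0.12 after centring, where it was closer to 0 than Hoxa2. On the deposited scale the counting interval of both genes includes 1, but that of Hoxd9 reached only 0.943 with equal totals and 0.992 with equal totals after leaving out mitochondrial and the 20 top rows.

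Hoxd8, with 349 and 207 fragments, had a ratio of 0.542 (interval 0.455 to 0.647) and a log2 change of -0.75. Its interval lay below 1 on each of the 4 scales tried, with upper bounds from 0.581 to 0.793. Hoxb2, with 47 and 30 fragments, had a ratio of 0.593 (interval 0.357 to 0.944) and a log2 change of -0.43, but after centring its interval reached 1.16 and included 1. Hoxd3, with 94 and 44 fragments, had a ratio of 0.427 and a log2 change of -0.68, given as a description because it was measured only through the control and overlaps Hoxd4. The second Hoxd4 row had a ratio of 0.0777 and a log2 change of -0.96, with no length to estimate fragments from. As ratios of FPKM, 3 of the 7 were at or below 0.5, Hoxd3 and the second Hoxd4 row among them. With a pseudocount of 0.1 FPKM these 3 passed 2-fold, Hoxd3 with a change of -1.13 and the second Hoxd4 row with -2.71, where 20.2% of all measured rows were 2-fold lower.

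**Figure D3:**
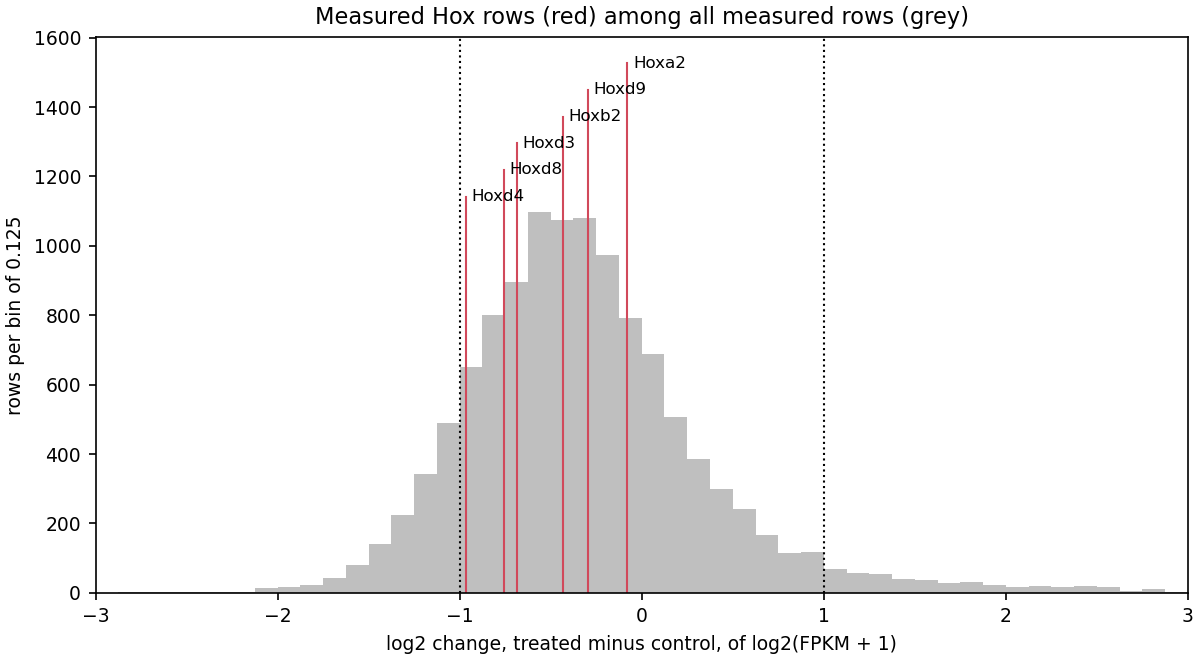
Histogram of the log2 change, treated minus control on log2(FPKM + 1), of the 11771 measured rows (grey, rows per bin), with measured Hox rows as red lines and 2-fold as dotted lines. The axis is cut at -3 and 3, beyond which 1 and 56 rows lie. The Hox lines run from -0.96 to -0.08, inside the 2-fold limits and on the side where most rows lie.

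Among the 33 rows below 1 FPKM in both libraries, 8 were lower in the treated library, 4 were higher and 21 were listed at 0. The 4 higher ones were Hoxa3, Hoxb9, Hoxd1 and Hoxd10. None of these had more than about 17 fragments. Summed by cluster, the treated-to-control ratio was 0.799 for A, 0.603 for B, 0.137 for C and 0.540 for D. Centring on abundant genes, which multiplied treated levels by 1.23, gave 0.980, 0.739, 0.168 and 0.662. The cluster D sum includes the overlapping Hoxd3 and Hoxd4 rows. Most of the cluster A sum was Hoxa2. The value of cluster C rests on traces.

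Promoters are shown for Hoxa2, Hoxd8 and Hoxd9, which set the levels and the upper limit described above. The RefSeq table of GRCm38.p6 held 24 promoters of 22 of the 39 genes, each from 250 bases before to 50 after the start. Those of Hoxb2 and Hoxc13, the highest members of their clusters, had no entry. Capitals mark matches on either strand to 5 motifs: TATAAA, the TATA box; CCAAT, the site of NF-Y; GGGCGG, the GC box; AGGTCA, a core site of nuclear receptors such as those for retinoic acid; and TGATTNAT, a PBX and HOX site. No matches overlap in these 3 windows.
Hoxa2 (chr6:52164782-52165081, minus strand): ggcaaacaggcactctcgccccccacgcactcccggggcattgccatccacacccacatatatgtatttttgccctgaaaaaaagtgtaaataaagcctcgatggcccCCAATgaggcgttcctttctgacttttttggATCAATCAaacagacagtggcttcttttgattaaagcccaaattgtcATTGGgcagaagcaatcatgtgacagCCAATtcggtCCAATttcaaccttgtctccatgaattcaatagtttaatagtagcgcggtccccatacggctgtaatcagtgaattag
Hoxd8 (chr2:74704365-74704664, plus strand): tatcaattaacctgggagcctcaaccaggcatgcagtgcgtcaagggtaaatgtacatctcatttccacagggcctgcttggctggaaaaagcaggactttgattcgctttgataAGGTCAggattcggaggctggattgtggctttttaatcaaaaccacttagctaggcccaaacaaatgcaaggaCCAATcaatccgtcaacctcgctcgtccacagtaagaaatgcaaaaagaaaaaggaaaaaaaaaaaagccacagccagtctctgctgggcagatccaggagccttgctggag
Hoxd9 (chr2:74697513-74697812, plus strand): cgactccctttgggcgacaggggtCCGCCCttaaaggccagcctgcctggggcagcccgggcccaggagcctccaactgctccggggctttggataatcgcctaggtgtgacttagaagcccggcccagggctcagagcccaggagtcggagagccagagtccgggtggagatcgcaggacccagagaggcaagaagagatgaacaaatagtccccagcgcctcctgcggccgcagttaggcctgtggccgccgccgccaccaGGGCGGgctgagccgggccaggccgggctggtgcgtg
The Hoxa2 window had 4 matches to CCAAT and 1 to TGATTNAT, motifs found in 37.4% and 3.22% of all 32851 promoters. The Hoxd8 window had 1 match to CCAAT and 1 to AGGTCA, the latter found in 16.3% of all promoters. The Hoxd9 window had 2 matches to GGGCGG, found in 35.7% of all. TATAAA, found in 13.6% of all promoters, was in none of these 3. Hox promoters had a median GC content of 57.7% and a median ratio of observed to expected CpG of 0.626, against 52.7% and 0.384 for all promoters. Among them the 5 of genes measured at 1 FPKM or more had medians of 46.7% and 0.573, and the 14 of genes listed at 0 had 56.5% and 0.820. A match of letters is a description and does not show that a factor binds there.

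Hox proteins bind DNA together with cofactors of the TALE homeodomain family, the PBX, MEIS and PKNOX proteins. These lists, like the members, were chosen with earlier results of these data known. Of 9 TALE cofactor genes, 8 reached 1 FPKM in both libraries, with a median change of -0.17. Of these 8, 0 were 2-fold higher and 0 were 2-fold lower, against 4.25% and 11.8% of all measured rows. Meis3 was at 12.9 FPKM with DMSO and 13.2 FPKM with iron plus RSL3, and Meis2 at 10.1 and 9.84 FPKM. Both were above every Hox row in the same library. Genes flanking the clusters were also well above most Hox members: of 15 found, 10 reached 1 FPKM in both libraries. Hibadh, near cluster A, was at 20.9 and 18.1 FPKM, Calcoco1, near cluster C, at 19.4 and 15.995 FPKM, and Atf2, near cluster D, at 13.7 and 18.7 FPKM. The homeobox genes at the outer ends of clusters A and D, Evx1 and Evx2, were listed at 0 in both. Of the 10 genes measured in this list, 2 were 2-fold lower, against 11.8% of all measured rows. Both lie near cluster C, as does Calcoco1, which did not pass 2-fold. The 2 lower genes were Smug1, a DNA repair enzyme gene, at 4.37 and 1.51 FPKM, and Cbx5, which encodes the heterochromatin protein HP1 alpha, at 13.2 and 5.81 FPKM.

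Other transcription factors tied to position were set beside the Hox pattern. Of 18 forebrain and midbrain patterning genes, 4 reached 1 FPKM in both libraries and 8 were listed at 0 in both, Otx1, Otx2 and Pax6 among them. Among the 4 were En1, a gene of the midbrain, the limb and the dermis (22.3 and 10.8 FPKM), Emx2, of the forebrain and the urogenital tract (14.5 and 5.47 FPKM) and Irx3 (5.11 and 17.5 FPKM). Emx2 was 2-fold lower and Irx3 2-fold higher in the treated library, 1 each of 4 measured, against 11.8% and 4.25% of all measured rows. Of 21 cranial mesenchyme genes, 7 reached 1 FPKM in both, led by Twist2 (299 and 366 FPKM) and Twist1 (28.2 and 30.9 FPKM), which are made in mesenchyme well beyond the head, and by Msx2 (6.76 and 5.71 FPKM). Alx4, of the skull and limb, was the only one 2-fold lower (2.35 and 0.54 FPKM). That was 1 of 12 measured, against 11.8% of all measured rows, and 0 were 2-fold higher, against 4.25%. Alx4 was measured only through the control and so had to be lower. Of 24 limb and trunk mesenchyme genes, 9 reached 1 FPKM in both. Of 10 measured, 0 were 2-fold lower and 0 were 2-fold higher, against 11.8% and 4.25% of all measured rows. Prrx1 (97.5 and 71.6 FPKM), Prrx2 (97.7 and 68.4 FPKM) and Tbx15 (37.5 and 24.2 FPKM), which is made in dermis and skeletal mesenchyme, led this list. The hindlimb gene Pitx1 was listed at 0 in both, and Tbx5 of the forelimb and Tbx4 of the hindlimb were at 0.02 FPKM or less.

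**Figure D4:**
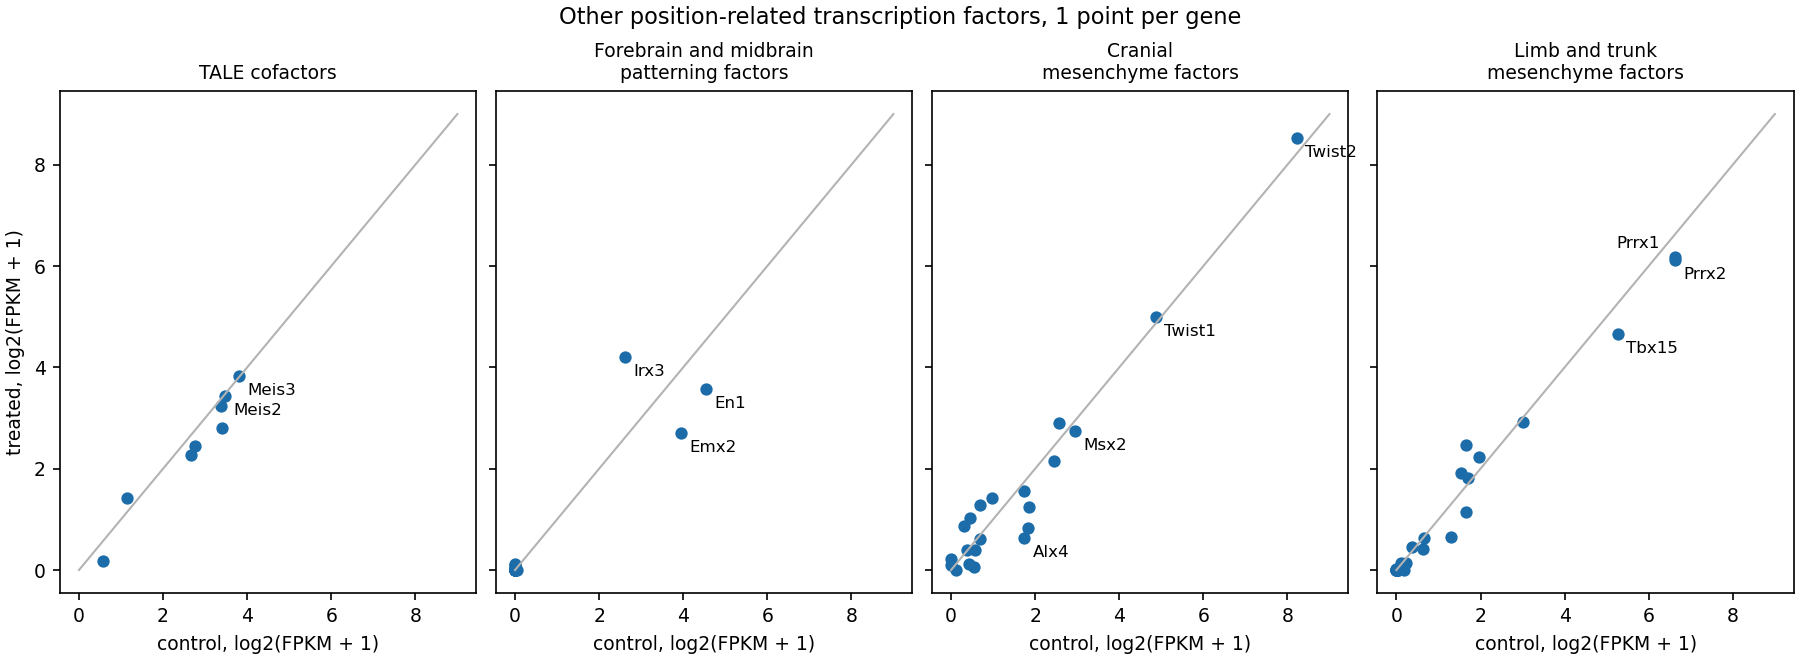
Level in the treated (vertical) against the control library (horizontal), both as log2(FPKM + 1), for 4 lists of position-related genes, 1 point per gene, with the line of equal levels. Genes named in the text are labelled. Prrx1, Prrx2 and Twist2 lie far above every Hox row, and most forebrain and midbrain genes lie at or near 0.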

How the data were processed

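Bulk RNA-seq was made from 2 cultures, 1 control and 1 treated, from total RNA with poly(A) selection and random hexamer priming, per the labels' protocols. Gene levels were deposited by the authors as FPKM. Per the submitters' processing notes, HISAT2, StringTie, DESeq2 and edgeR were used with the build GRCm38, and for versions, annotation release and filters the record is: not given in the sources used here. Groups came from the sample titles and columns from the library names.

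Hox rows were selected by symbol. Of the 40 rows, 39 identifiers were found in GENCODE M21, a GRCm38 annotation, which gave coordinates, lengths and exon overlaps. Changes were computed as log2(FPKM + 1) in Python 3.11.15 with pandas 2.3.3, over rows at 1 FPKM or more in either library, with a size rule of 2-fold and no test. Depth was estimated from steps in the low values, and no count model was used. The members and lists were chosen with earlier results of these data known. Within each list the 3 genes with the highest mean level and those past 2-fold are named (for cell type markers, the 2 highest and the defining genes), and other genes named were chosen after their values were seen. One member, some list genes, a homeobox and cluster A without its leading member are not reported here. The calculation was tested on simulated libraries. Alternatives covered the pseudocount, scaling, filter, size rule and presence threshold.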

Additional observations from a re-analysis of the deposited data

How the results depend on the processing

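With a pseudocount of 0.1 FPKM, 3 Hox rows were 2-fold lower instead of 0, and with a 1.5-fold rule 4 were lower, against 34.7% of all measured rows. The median of -0.68 became -0.87 with that pseudocount, -0.51 after centring on abundant genes, and 0 without a filter, since most rows are then 0. It was -0.75 with equal totals. Among members named here, Hoxa2 alone changed direction, to 0.17 after centring. Counting intervals on other scales were chosen after seeing the data. Scaling moved the median of all genes to -0.51 (equal totals) and -0.12 (centring). The number of rows present was 11 in the control at 0.5 FPKM, 2 at 2 FPKM and 1 at 5 FPKM. In the treated library it was 6, 2 and 0. The highest number present in cluster B was 4 with DMSO and 3 with iron plus RSL3 at 0.5 FPKM, and in cluster D it was 8 in both at 2 FPKM. At 5 FPKM it was 8 in the control, and nothing was present in the treated library. In cluster C, Hoxc13 at 0.52 FPKM passed the 0.5 FPKM threshold in the control, so the highest number present there was then 13. In the treated library no member of cluster C passed it. At thresholds where a cluster had no member present there is no value. With equal totals the summed ratios of clusters A, B, C and D were 0.717, 0.541, 0.123 and 0.485, and after centring 0.980, 0.739, 0.168 and 0.662. Summing the Hoxd4 rows, chosen after seeing the data, changed no count. No paired analysis was possible because each group has 1 library. With low levels and 1 library each, depth limits what can be said of members below 1 FPKM.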

Other observations

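Genes that regulate Hox clusters were measured as lists chosen with earlier results known. Of 23 Polycomb subunits, which keep Hox genes silent, 21 reached 1 FPKM in both libraries, led by Rbbp7 (123 and 101 FPKM), Phc2 (46.6 and 52.5 FPKM) and Rbbp4 (49.7 and 47.8 FPKM). The median change was -0.20, against -0.38 for all measured rows. Of the 22 measured subunits, 1 was 2-fold higher in the treated library, against 4.25% of all measured rows. On the same size rule 0 were 2-fold lower, against 11.8%. All 14 Trithorax-type and other chromatin activators reached 1 FPKM in both, led by Psip1 (24.6 and 19.5 FPKM), Ash2l (22.9 and 13.8 FPKM) and Wdr5 (17.2 and 15.3 FPKM), with a median of -0.35. Kdm6b, which removes the Polycomb mark from histone H3, was 2-fold higher (5.65 and 16.6 FPKM). Rbbp5, a subunit of the H3K4 methyltransferase complexes (13.3 and 5.02 FPKM), and Ctcf, which insulates domains within the clusters (16.7 and 7.59 FPKM), were 2-fold lower. Of the 14, these 2 were lower and 1 was higher, against 11.8% and 4.25% of all measured rows.

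Retinoic acid is a known inducer of low-numbered Hox genes. Of 18 genes of its signalling, 11 reached 1 FPKM in both libraries, with a median of -0.29. Crabp1, a retinoic acid-binding protein, was at 856 and 1014 FPKM, and the receptors Rarg (28.9 and 23.4 FPKM) and Rxrb (16.2 and 16.4 FPKM) followed. Cyp26b1, which degrades retinoic acid (8.12 and 2.82 FPKM), and Dhrs3, which lowers its synthesis (8.08 and 1.93 FPKM), were 2-fold lower. Aldh1a3, which makes retinoic acid, was 2-fold higher (0.67 and 3.12 FPKM). It was measured only through the treated library and so had to be higher there. Of the 13 measured genes of this list, 2 were thus lower and 1 higher, against 11.8% and 4.25% of all measured rows. Of 10 axial patterning genes found, Gdf11 alone was measured, at 5.04 and 6.07 FPKM, and 6 were listed at 0 in both libraries. Cdx1 was at 0.10 and 0.05 FPKM, Fgf8 was listed at 0 in the control and was at 0.22 FPKM in the treated library. The other marker lists were low in most members: of 8 neuron, 7 astrocyte, 8 oligodendrocyte, 6 endothelial and 6 epithelial markers, 1, 2, 2, 1 and 0 reached 1 FPKM in both libraries. The highest of these lists were Tubb3 and Stmn2 (neuron), Gja1 and Slc1a3 (astrocyte), Cnp and Mbp (oligodendrocyte), Flt1 and Kdr (endothelial) and Krt18 and Epcam (epithelial). Of 12 meningeal markers, 6 reached 1 FPKM in both, led by Cdh11 (167 and 80.3 FPKM, 2-fold lower) and Lum (13.2 and 12.1 FPKM). Cdh11 was the only 1 of 7 measured that was 2-fold lower, against 11.8% of all measured rows.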
